A study of Mus musculus with 4 samples.

Results

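Polycomb genes were followed in cultured mouse spermatocytes with and without an inhibitor of the ATR kinase. The genes were Scml2, Scmh1, Ring1, Rnf2, Bmi1, Pcgf6, Cbx2, Ezh2, Eed and Suz12, which were taken by symbol from the deposited expression table, so that 10 of its 23420 genes are described. Only Scml2 among these lies on the X chromosome. Scml2 was the 1 gene of the 10 that passed the test for a change after AZ20. It went from 0.516 ± 0.383 TPM in Ctrl to 16.8 ± 0.0580 TPM in AZ20 (mean ± SD, n = 2 libraries each). The other 8 genes with reads passed no test, and Cbx2 was listed at 0 in every library. TPM (transcripts per 1000000 transcripts) is a level per length of the gene, so that genes can be compared within a library.

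Polycomb proteins keep genes silent through chromatin. PRC1 is built on the E3 ligases RING1 and RNF2, which place ubiquitin on histone H2A, and PRC2 is built on EZH2, EED and SUZ12 and methylates histone H3 at lysine K27. In the male germ line SCML2, a protein with malignant brain tumor (MBT) repeats that binds PRC1, is known for its roles in germline chromatin and at the sex chromosomes, which are silenced in pachytene spermatocytes by meiotic sex chromosome inactivation (MSCI). ATR is the kinase whose DNA damage response signaling starts MSCI and, as the paper concludes, is also needed to maintain it.

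All 4 libraries came from wild-type (WT) C57BL/6 mice of 23 weeks of age, whose pachytene spermatocytes were sorted by a DNA dye and cultured for 24 h. Ctrl cells received DMSO, the solvent, and AZ20 cells received 10 µM AZ20, an ATR inhibitor (ATRi). Each library was made from 15000 cells, and each mouse gave cells to both conditions. The replicate number was taken to pair 1 Ctrl with 1 AZ20 library, though the sample titles name no mouse. The labels and the methods give different culture temperatures and different HiSeq instruments. The reads recovered from TPM on genes summed to 14238905 and 16153844 in the Ctrl libraries and to 20617641 and 18895207 in the AZ20 libraries, so that a level of 0 in Ctrl rests on the shallower libraries.

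Markers of pachytene spermatocytes summed to 12304 to 12634 TPM in the 4 libraries, and 0 of the 8 tested were called (limma, also 0 with the replicate block). Hist1h1t, the gene of the linker histone of mid pachytene, was at most 1.52 TPM, while Sycp3 and Hormad1 of the meiotic chromosome axis had 2061 to 2924 and 951 to 1369 TPM. The paper checked the purity of the sorted cells by staining that included H1T, the protein of Hist1h1t. The reason for the low RNA level was not tested. The defining markers of Sertoli cells Wt1 and Sox9 were at 0, as were 5 of 6 Leydig markers. Over the 4 libraries the summed levels were 0.0463 to 0.651 TPM for 6 Sertoli markers, 0.866 to 2.31 for 6 Leydig markers, 0.347 to 1.34 for 5 macrophage markers, 2.10 to 4.44 for 4 peritubular myoid markers and 8.26 to 21.2 for 8 spermatogonial markers. The summed level of 6 round spermatid markers was 365 and 149 TPM in Ctrl and 771 and 251 TPM in AZ20, higher in AZ20 within both pairs, and its part in the results below was not tested. Of these 6 markers 0 were called, and Prm1, the protamine gene, was called with the replicate block.

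The only gene called among the 10 was Scml2, an SCM gene, and RNA alone was measured here. For the protein, the paper reports that SCML2 localization in spermatocytes depends on the DNA damage response, as seen with ATRi. The start regions of Scml2 and of its autosomal paralog Scmh1 are shown with that of Rbbp7, which had the highest difference on the log2(TPM + 1) scale of the X-linked Polycomb genes tested, because the CpG content of these starts differed widely. The sequences are bases before each RefSeq start (GRCm38.p6, plus strand), 250 for Scml2 and Rbbp7 and 183 for Scmh1, whose first GENCODE exon begins after them. Every CG dinucleotide is in capitals.
Scml2, chrX:161162500-161162749: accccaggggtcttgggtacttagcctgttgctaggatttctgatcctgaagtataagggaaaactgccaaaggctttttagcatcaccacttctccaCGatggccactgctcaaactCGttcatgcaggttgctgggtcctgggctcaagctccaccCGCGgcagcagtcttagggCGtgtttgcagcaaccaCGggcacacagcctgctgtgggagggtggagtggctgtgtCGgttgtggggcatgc
Rbbp7, chrX:162760122-162760371: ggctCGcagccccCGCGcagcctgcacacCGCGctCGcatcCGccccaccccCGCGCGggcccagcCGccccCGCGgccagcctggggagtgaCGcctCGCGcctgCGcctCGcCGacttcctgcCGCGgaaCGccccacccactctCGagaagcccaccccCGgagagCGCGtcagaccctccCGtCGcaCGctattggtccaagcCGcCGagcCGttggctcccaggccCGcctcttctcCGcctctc
Scmh1, chr4:120405098-120405280: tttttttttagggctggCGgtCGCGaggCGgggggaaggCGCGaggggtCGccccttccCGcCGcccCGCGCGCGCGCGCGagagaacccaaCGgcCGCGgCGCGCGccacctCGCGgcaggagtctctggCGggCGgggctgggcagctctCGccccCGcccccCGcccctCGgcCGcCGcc
The stretches hold 7 CG dinucleotides for Scml2, 34 for Rbbp7 and 32 for Scmh1. The Scml2 start used here lies inside the longer GENCODE gene.

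Scml2 (ENSMUSG00000000037.16, chrX:161117193-161258213, plus strand) was at 0.245 TPM in Ctrl replicate 1 and 0.787 TPM in Ctrl replicate 2, from 12 and 44 reads. It was at 16.8 TPM in AZ20 replicate 1 and 16.9 TPM in AZ20 replicate 2, from 1182 and 1072 reads. Both AZ20 libraries were far above both Ctrl libraries, and they differed by less from each other than the Ctrl libraries did. Within pairs the fold was 68.4 for replicate 1 and 21.4 for replicate 2, so the size of the change depends on which Ctrl library it is set against. On the log2(TPM + 1) scale, which understates the change of genes that are low in Ctrl, the difference was 3.58 ± 0.29 (SE, n = 2 against 2, limma adjusted p = 0.00063). Without AZ20 replicate 1 the adjusted p was 0.133, and without AZ20 replicate 2 it was 0.121, while the differences stayed at 3.58 and 3.57. In those 2 fits limma called 0 of all 10316 genes, with 871 and 737 genes at an unadjusted p under 0.05.

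Scmh1 (ENSMUSG00000000085.16, chr4:120405281-120530186, plus strand), a PRC1-associated SCM protein, had 10.1 and 7.08 TPM in Ctrl and 8.79 and 10.1 TPM in AZ20. The groups overlapped, and the difference was 0.14 ± 0.26 (SE) on the log2 scale (limma adjusted p = 0.93). Scml4, the other SCM paralog, had 5 reads in Ctrl replicate 2 and none in the other libraries. Of the summed TPM of the 3 SCM genes, Scml2 took 2.37% and 9.89% in Ctrl and 65.6% and 62.5% in AZ20. Scmh1 was therefore the main SCM transcript in both Ctrl libraries and Scml2 in both AZ20 libraries. The summed SCM level was 9.15 ± 1.69 TPM in Ctrl and 26.3 ± 0.984 TPM in AZ20 (SD, n = 2).

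**Figure D1:**
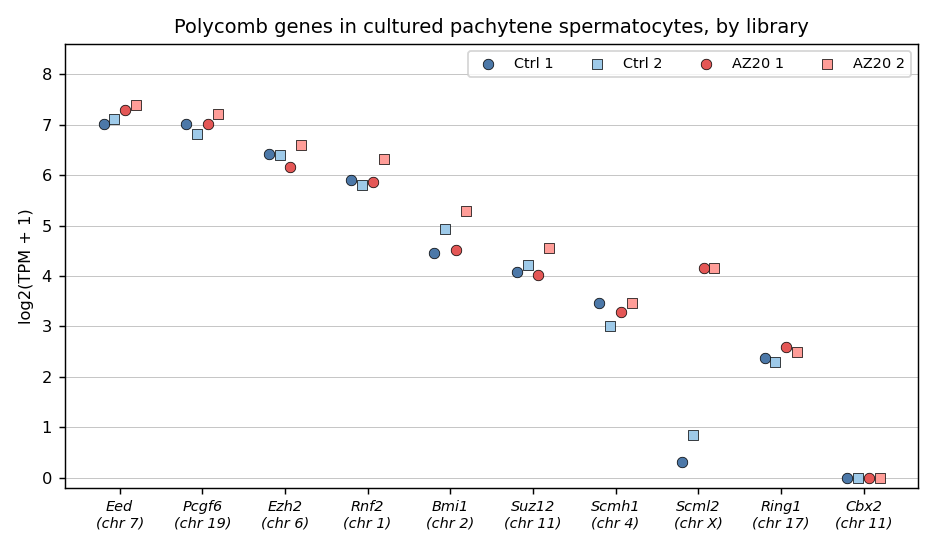
The level of the 10 Polycomb genes in each library is plotted as log2(TPM + 1), ordered by their mean over the 4 libraries, with Ctrl in blue, AZ20 in red, replicate 1 as circles and replicate 2 as squares. Scml2 is the 1 gene whose AZ20 points stand far above its Ctrl points, and Cbx2 lies at 0 throughout.

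The catalytic core of PRC1 was expressed in all 4 libraries and passed no test. Rnf2 (ENSMUSG00000026484.13, chr1:151458004-151500955, minus strand), the main H2A ubiquitin ligase, had 58.8 and 55.2 TPM in Ctrl and 57.6 and 79.0 TPM in AZ20. AZ20 replicate 1 lay between the Ctrl libraries, and the difference was 0.24 ± 0.21 (SE, limma adjusted p = 0.83). Ring1 (ENSMUSG00000024325.8, chr17:34020792-34024680, minus strand), its paralog, had 4.19 and 3.92 TPM in Ctrl and 5.04 and 4.61 TPM in AZ20. Both AZ20 values were above both Ctrl values, but the difference of 0.20 ± 0.25 was within its error (SE, limma adjusted p = 0.88). Rnf2 made up 92.0% to 94.5% of the summed TPM of the pair in the 4 libraries, so that its level was 11.4 to 17.2 times that of Ring1.

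PCGF proteins pair with RING1 or RNF2 and define the variants of PRC1. Pcgf6 (ENSMUSG00000025050.8, chr19:47033617-47050906, minus strand), of the variant PRC1.6, had 128 and 112 TPM in Ctrl and 129 and 147 TPM in AZ20. The ranges did not overlap, though Ctrl replicate 1 and AZ20 replicate 1 were nearly level, and the difference was 0.20 ± 0.18 (SE, limma adjusted p = 0.83). Bmi1 (ENSMUSG00000026739.13, chr2:18677018-18686629, plus strand), a subunit of canonical PRC1, had 21.0 and 29.3 TPM in Ctrl and 22.0 and 38.1 TPM in AZ20. Replicate 2 was the higher library of each group and the groups overlapped, with a difference of 0.21 ± 0.31 (SE, limma adjusted p = 0.91). Pcgf6 was 3.81 to 6.08 times the level of Bmi1 in every library.

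Of the summed TPM of the 6 PCGF genes, Pcgf1 took 29.0% to 38.3%, Pcgf6 25.9% to 32.6% and Pcgf5 26.1% to 31.1%, whereas Bmi1 took 5.13% to 8.42%. Pcgf2, the closest paralog of Bmi1, had at most 8 reads in a library. Pcgf1, Pcgf5 and Pcgf6 belong to variant forms of PRC1. The summed PCGF level was 411 ± 27.7 TPM in Ctrl and 440 ± 16.8 TPM in AZ20 (SD, n = 2).

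CBX proteins bring canonical PRC1 to methylated histone H3. Cbx2 (ENSMUSG00000025577.7, chr11:119022962-119031270, plus strand) was listed at 0 TPM in all 4 libraries, as was Cbx8. Cbx6 had 7 reads in each of Ctrl replicate 2 and AZ20 replicate 2 and none in the others. Cbx7 made up 98.2% to 100% of the summed TPM of Cbx2, Cbx6, Cbx7 and Cbx8, at 6.13 and 7.52 TPM in Ctrl and 5.82 and 5.27 TPM in AZ20. Its AZ20 values were below its Ctrl values, with a difference of -0.25 ± 0.25 (SE, limma adjusted p = 0.85). Among the polyhomeotic genes Phc1 took 71.0% to 83.0% of the summed TPM.

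The core of PRC2 also passed no test. Ezh2 (ENSMUSG00000029687.16, chr6:47530139-47595341, minus strand), the H3 methyltransferase, had 84.6 and 83.1 TPM in Ctrl and 70.2 and 95.2 TPM in AZ20. The AZ20 libraries lay on either side of the Ctrl libraries, and the difference was -0.04 ± 0.21 (SE, limma adjusted p = 0.98). Ezh1, the paralog with weaker activity, had 2.95 to 4.40 TPM, so that Ezh2 took 95.0% to 96.6% of the summed TPM of the pair.

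Eed (ENSMUSG00000030619.9, chr7:89954654-89980983, minus strand), which binds methylated H3 and stimulates the enzyme, was the highest of the 10 genes. It had 128 and 138 TPM in Ctrl and 156 and 166 TPM in AZ20. The groups did not overlap and the difference was 0.27 ± 0.16 (SE, limma adjusted p = 0.72). Suz12 (ENSMUSG00000017548.15, chr11:79993106-80034123, plus strand), the subunit that holds the complex together, had 16.0 and 17.6 TPM in Ctrl and 15.2 and 22.5 TPM in AZ20, with a difference of 0.13 ± 0.25 (SE, limma adjusted p = 0.93). Suz12 overlapped between the groups and was the lowest of the core PRC2 transcripts. In every library Eed was 7.35 to 10.3 times and Ezh2 4.22 to 5.29 times the level of Suz12. Exons of another gene on the opposite strand cover 12.6% of the Eed exon bases, 4.07% of Suz12 and 3.28% of Ezh2, and use of strand in the counting is not given in the sources used here, so that reads of both strands cannot be told apart there.

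RBBP4 and RBBP7 are histone-binding subunits that PRC2 shares with other complexes. Rbbp4 had 29.0 and 33.4 TPM in Ctrl and 34.5 and 32.6 TPM in AZ20, and its groups overlapped (difference 0.10 ± 0.20, SE, limma adjusted p = 0.93). Rbbp7 (ENSMUSG00000031353.13), which is X-linked, had no reads in Ctrl replicate 1 and 0.42 TPM from 11 reads in Ctrl replicate 2. It had 23.6 and 27.6 TPM in AZ20, from 778 and 822 reads, and rose by a difference of 4.47 ± 0.29 (SE, limma adjusted p = 0.00021). Rbbp7 took 0% and 1.24% of the summed TPM of the pair in Ctrl and 40.6% and 45.8% in AZ20. Without AZ20 replicate 1 the adjusted p of Rbbp7 was 0.102, without AZ20 replicate 2 it was 0.0863, and with a pseudocount of 0.01 it was 0.127. Exons of Txlng on the opposite strand cover 7.42% of the Rbbp7 exon bases. For Rbbp4, opposite-strand exons of Gm26722 cover 18.1% and those of Sync 11.8% of the exon bases.

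**Figure D2:**
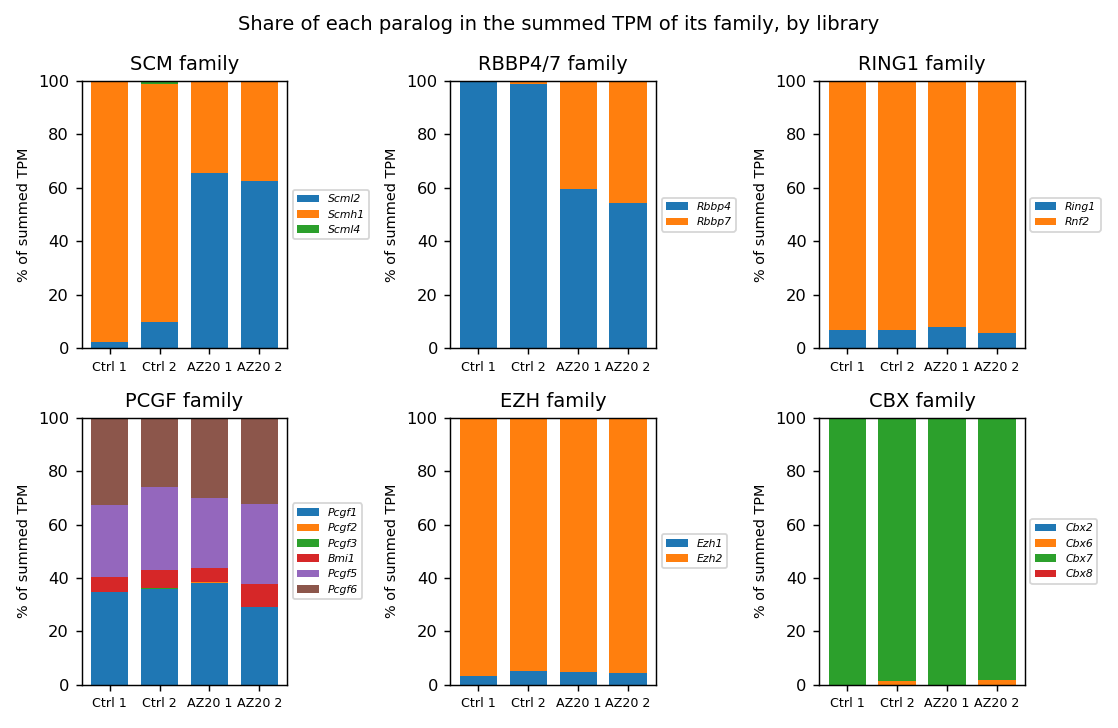
Each bar gives the share in percent of each paralog in the summed TPM of its family in 1 library, for 6 Polycomb families. Scml2 goes from 2.37% and 9.89% in Ctrl to 65.6% and 62.5% in AZ20 and Rbbp7 from 0% and 1.24% to 40.6% and 45.8%, while Rnf2 stays between 92.0% and 94.5% and Ezh2 between 95.0% and 96.6%.

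Across the 10 genes, 9 passed the filter of a mean above 1 TPM in Ctrl or AZ20, and 1 of these (Scml2, which passed through AZ20) was called at 2-fold and an adjusted p under 0.05 (0 without AZ20 replicate 1 or without AZ20 replicate 2). Over all 10316 genes tested, 2.33% were called (2.28% higher, 0.0485% lower), and 447 with the replicate block in place of 240. An unadjusted p under 0.05 was reached by 1 of the 9, against 9.16% of all genes tested. The groups did not overlap, with AZ20 higher, for 4 of the 9, against 26.4% of all genes tested (AZ20 lower for 0, against 11.7%). On autosomes limma called 0 of the 8 genes tested, against 0.151% of autosomal genes, with 0 at an unadjusted p under 0.05 and 0 by voom on recovered reads. Both AZ20 values were above both Ctrl values for 3 of these 8 genes (Eed, Pcgf6 and Ring1), which is to be read against 24.1% of autosomal genes, and the difference of Ring1 was -0.052 under quantile normalization, where the all-gene median shifted by -0.14. The change was above 0 in both pairs for 4 of the 8, against 34.1% of autosomal genes. The reads behind these values ran from 86 to 149 per library for Ring1 and 277 to 450 for Scmh1 up to 2662 to 4674 for Eed and 2704 to 4044 for Pcgf6, so that Ring1 and Scmh1 carried the most counting error. Their median difference, over the 8 genes, was 0.20 on the log2 scale, beside 0.059 over all autosomal genes tested.

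Scml2 was set among the genes of its own chromosome. Of the 341 X-linked genes tested, 63.3% were called higher, and their median difference was 2.61 on the log2 scale. Of these, 288 passed the filter through AZ20 alone, as Scml2 did, so that neither value describes all X-linked genes. The difference of Scml2 was larger than that of 67.4% of them, which placed it at rank 111, and its AZ20 level was at rank 94. In bulk samples, fewer cells that express a gene and less RNA per cell cannot be told apart.

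**Figure D3:**
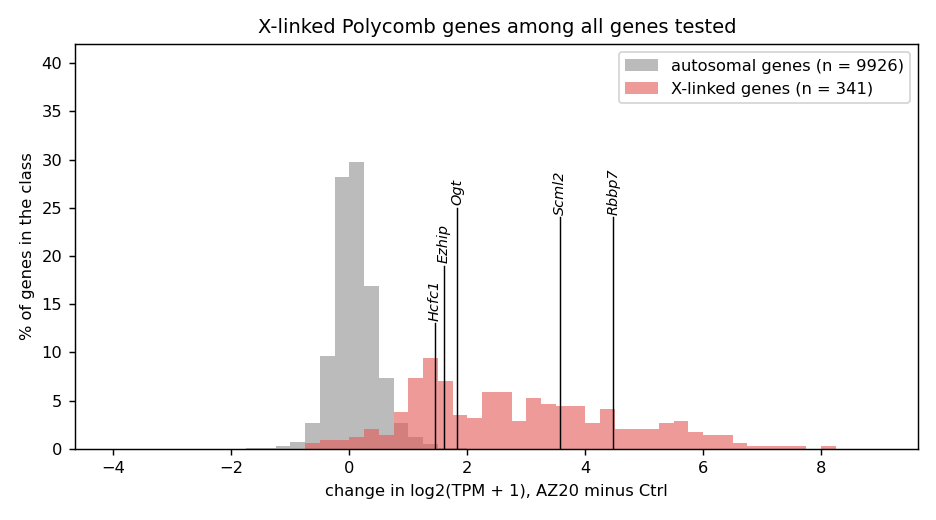
The histogram gives the difference in log2(TPM + 1), AZ20 minus Ctrl, of 9926 autosomal genes (grey) and 341 X-linked genes (red), each in percent of its class, with lines at the 5 X-linked Polycomb genes tested. Scml2 (3.58) and Rbbp7 (4.47) lie above the X-linked median of 2.61, and Ogt (1.83), Ezhip (1.60) and Hcfc1 (1.44) lie below it. This order holds for this scale, where the difference of a gene at 0 in Ctrl is set by its AZ20 level. By voom on recovered reads the differences were 8.21 for Hcfc1, 8.20 for Ogt and 7.94 for Rbbp7. Those of Ezhip (6.58) and Scml2 (5.16) were smaller.

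A wider list of 57 Polycomb genes holds 6 more X-linked genes. Besides Rbbp7, Ogt rose, the gene of the enzyme that attaches N-acetylglucosamine to proteins and works with the BAP1 deubiquitinase complex. Ogt (ENSMUSG00000034160.13) had no reads in either Ctrl library and 2.59 and 2.52 TPM in AZ20, from 203 and 178 reads. Its AZ20 level was at least 49.4-fold higher than 3 reads in each Ctrl library would give, and its difference was 1.83 ± 0.32 (SE, limma adjusted p = 0.034). That call was lost without any 1 of the 4 libraries (adjusted p 0.170 without Ctrl replicate 1, 0.163 without Ctrl replicate 2, 0.107 without AZ20 replicate 1 and 0.0818 without AZ20 replicate 2).

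Ezhip, the gene of a PRC2 inhibitor expressed in germ cells, had no reads in Ctrl and 2.06 and 2.01 TPM in AZ20, from 66 and 58 reads, at least 16.1-fold higher than 3 reads per Ctrl library would give. Its difference of 1.60 ± 0.32 (SE) missed the threshold (limma adjusted p = 0.0715) and passed with the replicate block (adjusted p = 0.0067) and by voom (adjusted p = 0.040). Hcfc1, a cofactor bound by BAP1 and OGT, had no reads in Ctrl and 1.91 and 1.54 TPM in AZ20, from 225 and 164 reads, at least 50.2-fold higher on the same floor. Its difference of 1.44 ± 0.33 (SE) had a limma adjusted p of 0.122, and 0.0205 with the replicate block. For these 3 genes every Ctrl library was at 0, and the fitted difference depends on the pseudocount.

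Bcor and Bcorl1, corepressors of the PCGF1 variant of PRC1, stayed under the filter. Bcor had no reads in Ctrl and 9 and 1 reads in the AZ20 libraries. Bcorl1 had 1 read in Ctrl replicate 1, none in Ctrl replicate 2 and 23 in each AZ20 library. Both genes were low in all 4 libraries, unlike their autosomal partner Pcgf1, which had 136 and 155 TPM in Ctrl and 164 and 131 TPM in AZ20. Counting Scml2, 5 of the 7 X-linked Polycomb genes were tested, and all 5 passed the filter through AZ20 alone, with Ctrl means of at most 0.516 TPM. A higher level in AZ20 was thus a condition of being tested, and the counts that follow are a description. Of the 5 genes 3 were called, and all 5 were called with the replicate block and by voom on recovered reads. Without AZ20 replicate 1 none of the 3 was called, nor without AZ20 replicate 2, and without either Ctrl library 2 were (Scml2 and Rbbp7).

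The other 51 genes of the wider list lie on autosomes. Of these 35 were tested, 13 stayed below the filter and 3 were listed at 0. Limma called 0 of the 35, against 0.151% of autosomal genes. The replicate block and voom also called 0, and the median difference of the 35 was 0.10 with a range of -0.36 to 0.73. Phc2, a polyhomeotic subunit of canonical PRC1, was the 1 gene of these with an unadjusted p under 0.05, against 6.35% of autosomal genes, and was chosen for naming after its values were seen. It had 3.03 and 3.82 TPM in Ctrl and 6.71 and 5.89 TPM in AZ20, with a difference of 0.73 ± 0.26 (SE, limma adjusted p = 0.43).

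By complex, 9 of 13 further PRC1 subunits were tested and 0 called, and 6 of 11 partners of variant PRC1 were tested and 0 called. Of 12 further PRC2 subunits and cofactors 9 were tested and 1 was called (Rbbp7), and of 13 genes of deubiquitination 11 were tested and 1 was called (Ogt). Of 8 genes of MBT proteins and the PhoRC complex, 4 were tested and 0 called. At an unadjusted p under 0.05 there were 1, 0, 2, 2 and 0 genes in these 5 groups, in the same order. With the replicate block or by voom 0, 0, 2, 2 and 0 were called. Over all genes tested 2.33% were called by limma and 9.16% had an unadjusted p under 0.05 (0.151% and 6.35% of autosomal genes). Every gene called here, also with the block or by voom, is X-linked and passed the filter through AZ20 alone. The counts are thus no result about a complex.

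The most abundant of the wider list in Ctrl were Pcgf1, Pcgf5, Usp16, Lcorl and Mbtd1. Pcgf5, the PCGF subunit of PRC1.5, had 106 and 134 TPM in Ctrl and 112 and 135 TPM in AZ20. Usp16, which takes ubiquitin off H2A, had 59.6 and 52.7 TPM in Ctrl and 57.8 and 69.4 TPM in AZ20. Lcorl, whose locus gives a PRC2 cofactor, had 40.4 and 52.8 TPM in Ctrl and 48.4 and 52.3 TPM in AZ20. Mbtd1, an MBT-repeat gene, had 38.0 and 33.4 TPM in Ctrl and 33.7 and 46.3 TPM in AZ20. In each of these 5 genes the groups overlapped. The lowest differences were those of Asxl1 (-0.36 ± 0.29, SE), Asxl2 (-0.28 ± 0.26) and Cbx7. Asxl1 and Asxl2 encode partners of BAP1, and neither passed the test (limma adjusted p = 0.82 and 0.84).

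**Figure D4:**
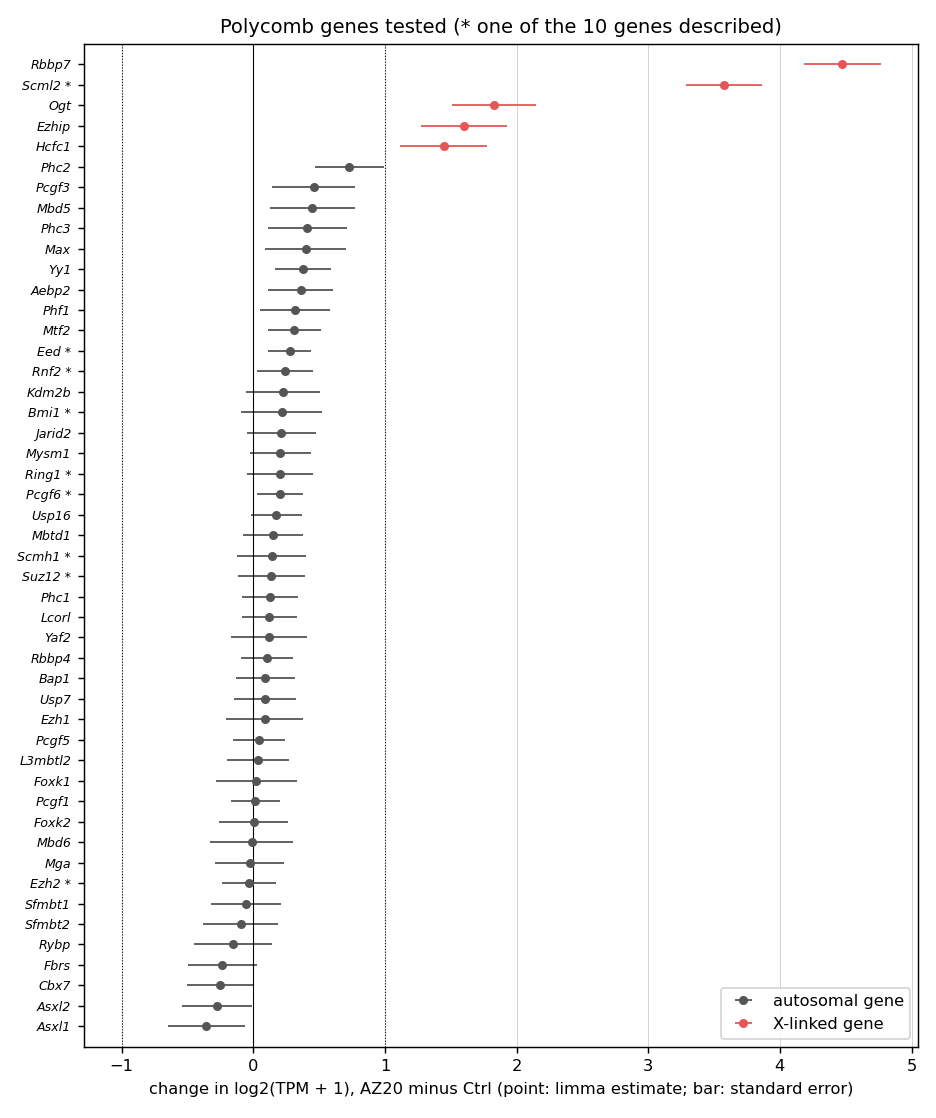
The difference in log2(TPM + 1), AZ20 minus Ctrl, is plotted for the 48 Polycomb genes tested, with standard errors and dotted lines at 2-fold. The 5 X-linked genes (red) lie at 1.44 to 4.47, and the 43 autosomal genes (grey) lie between -0.36 and 0.73.

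HOX genes and the Cdkn2 locus are classical targets of Polycomb silencing. Of 41 such genes, 22 were listed at 0 in all libraries, 14 were below the filter and 5 were tested. Of all 23420 genes, 16857 were above 0 in some library and 10316 were tested. Limma called 0 of the 5, as did voom and the replicate block. Over autosomal genes 0.151% were called by limma and 6.35% had an unadjusted p under 0.05. Hoxa4 had 53.2 and 60.1 TPM in Ctrl and 59.5 and 47.9 TPM in AZ20. Hoxd8 had 34.9 and 30.1 TPM in Ctrl and 45.4 and 51.7 TPM in AZ20, and it was the 1 gene of the 5 with an unadjusted p under 0.05 (difference 0.56 ± 0.20, SE, limma adjusted p = 0.42). Hoxa4 and Hoxd8 thus had levels in the range of the Polycomb subunits themselves in both conditions. Hoxa3 and Hoxb5 stayed between 1.33 and 2.96 TPM, and Cdkn2b, a cell cycle inhibitor, between 0.0711 and 1.97 TPM. Opposite-strand exons cover 16.0% of the Hoxa4 exon bases.

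Within AZ20 most autosomal Polycomb genes were higher in 1 library. AZ20 replicate 2 was above AZ20 replicate 1 for 7 of the 8 autosomal genes (all but Ring1), with a median difference of 0.31 on the log2 scale and the highest at Bmi1 (0.77), Suz12 (0.54), Rnf2 (0.45) and Ezh2 (0.44). Over all genes tested 45.6% were higher in AZ20 replicate 2. Between the Ctrl libraries 3 of the 8 genes were higher in replicate 2, with a median of -0.051. The summed round spermatid markers were 771 TPM in AZ20 replicate 1 and 251 TPM in AZ20 replicate 2, and their part in this difference was not tested. Scml2 differed by 0.0066 between the AZ20 libraries.

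By mean level over the 4 libraries the order was Eed (147 TPM), Pcgf6 (129), Ezh2 (83.3), Rnf2 (62.7), Bmi1 (27.6), Suz12 (17.8), Scmh1 (9.02), Scml2 (8.66), Ring1 (4.44) and Cbx2 (0). Neighbours whose ranges overlapped within AZ20 were Ezh2 and Rnf2, and Bmi1 and Suz12. Within Ctrl no neighbours overlapped, in part because 2 libraries span a narrow range. The place of Scml2 in this order is a mean of 2 unlike groups. In Ctrl 4.23% of the genes tested were lower than Scml2.

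The genes most like Scml2 over the 4 libraries were found by the summed absolute difference in log2(TPM + 1) among 10315 genes. They were Gm16390 (0.62), 3830417A13Rik (0.64), Magea3 (0.69), Timm17b (0.83) and Msl3 (0.87), and all 5 are X-linked. Of the 235 genes called higher after AZ20, 216 are X-linked, so this was largely set by the choice of pattern. Msl3, a subunit of the MSL histone acetyltransferase complex, had 0.299 and 0.224 TPM in Ctrl and 14.8 and 15.8 TPM in AZ20. Timm17b, of the mitochondrial import channel, had 0.121 and 0.211 TPM in Ctrl and 17.0 and 15.7 TPM in AZ20. Magea3 belongs to a family with close copies, so its level is uncertain.

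Start regions of 300 bases (250 before and 50 after the RefSeq start) were matched for 9 of the 10 genes, all but Cbx2. All 9 held more CG dinucleotides than the median of 7 over 27025 promoters. Scml2 held the fewest, 13, and 61.5% of promoters held fewer. The 8 autosomal genes held 17 (Eed) to 54 (Scmh1). Among the 6 X-linked genes of the wider list the range was 5 (Ezhip) to 38 (Rbbp7). A part of CG content in the differences was not tested. The YY1 core AANATGGC, searched on both strands, was in the start regions of Scml2, Bmi1 and the X-linked Hcfc1, and in 6.23% of all promoters. The E-box CACGTG was in those of Bmi1 and the X-linked Bcorl1 and in 7.24% of all. The E2F core GCGGGAA was in those of Scmh1 and Suz12 and in 4.66% of all. These matches are descriptions of letters and not of binding.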

How the data were processed

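RNA-seq was done on 4 libraries of cultured pachytene spermatocytes, 2 Ctrl and 2 AZ20. Reads were trimmed (Trimmomatic 0.39), aligned uniquely to GRCm38 (STAR 2.5.4b) and counted on refGene (featureCounts 2.0.1) by the authors, who deposited TPM computed from those counts. Each column sums to 1000000. Multi-mapping reads are thus lost for genes with close copies.

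From the TPM, reads were recovered as whole numbers. All 16857 genes above 0 came out whole (rebuilt TPM within 1.6e-07), but a whole factor shared by all 4 libraries of a gene is lost in TPM, and 785 genes took such a factor from transcript length. Counting error alone does not give the spread between mice. Log2(TPM + 1) of the 10316 genes with a mean above 1 TPM in Ctrl or AZ20 was fitted with limma (3.58.1, R 4.3.3) with a trend and Benjamini-Hochberg adjustment. An adjusted p from 2 against 2 libraries rests on the spread shared across genes, since an exact permutation test cannot go below 0.333. A call needed 2-fold and an adjusted p under 0.05. Deviations of same-numbered libraries correlated at 0.229. With 2 libraries per group the other pairing gives this value with its sign turned, so it cannot decide the pairing. The methods split the cells of a mouse, and on that ground the numbers were taken to pair the libraries. The main fit did not use this pairing. The replicate block was an alternative, as were voom on recovered reads, other pseudocounts, filters and scalings, no trend and leaving out each library.

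The genes and lists were chosen with earlier results of these data known. Named were the 10 genes, and of the wider list the X-linked and called genes, the 5 highest in Ctrl, the 3 highest and 3 lowest differences, paralogs of the 10, the tested HOX and Cdkn2 genes and the 5 genes most like Scml2. Positions are from GENCODE (GRCm38), which placed 21777 of 23420 symbols, with 211 placed by a RefSeq symbol, 1295 by a synonym and 137 not placed. Promoters are from RefSeq (GRCm38.p6). Ezhip is listed in the table as AU022751. There were 92 blank rows, which were left out. The result of 1 gene of the wider list is not reported here by name. Python 3.11.15 was used for other values.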

Additional observations from a re-analysis of the deposited data

How the results depend on the processing

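Of 384 single-gene differences under the alternatives tried, 339 kept their direction and their side of the threshold. The difference of Scml2 stayed between 3.25 and 5.22 on the log2 scale in 14 alternatives and was called in 12 of them. It was lost without AZ20 replicate 1 or AZ20 replicate 2 (3.57 to 3.58 over these 2 fits, adjusted p 0.121 to 0.133), and over all 4 such fits the difference was 3.32 to 3.84. Without either AZ20 library 0 of the 10 genes were called, and leaving out each library in turn gave 0 to 1. With 1 AZ20 library left, that library is assumed to vary like Ctrl. The wider list had 2 calls, 1 with a pseudocount of 0.01, with a mean TPM above 5 and with quantile normalization, 3 with no expression filter (Ezhip added, adjusted p = 0.043), and 4 with the replicate block, with no trend, by voom and by voom with the block. Leaving out each library gave 0 to 1. Of the named genes 3 were called, 2 with a pseudocount of 0.01, with a mean TPM above 5 and with quantile normalization, 4 with no expression filter, 5 with the block, with no trend and by both voom fits, and 0 without either AZ20 library, a range of 0 to 2 over the libraries. Over all genes voom gave 223 calls, 323 with the block. The block in limma gave 447 in place of 240. Among the Polycomb, HOX and Cdkn2 genes named it changed no call beyond Ezhip and Hcfc1, and among the cell type markers it added Prm1.

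Quantile normalization moved the median of all genes by -0.14. Under it the differences turned to -0.060 for Scmh1, -0.052 for Ring1, -0.0067 for Suz12, -0.019 for Pcgf1, -0.17 for Ezh1, -0.018 for Rbbp4 and -0.16 for Hoxb5. By voom Pcgf1 turned to -0.0088, and to -0.0083 with the block. Leaving out 1 library turned the sign of 11 genes, none of which was called, and the cause was not tested. The lowest and highest values over those fits were -0.090 and 0.37 for Scmh1, -0.17 and 0.60 for Bmi1, -0.25 and 0.18 for Ezh2, -0.14 and 0.41 for Suz12, -0.15 and 0.17 for Pcgf1, -0.12 and 0.21 for Pcgf5, -0.068 and 0.31 for Lcorl, -0.077 and 0.37 for Mbtd1, -0.14 and 0.31 for Ezh1, -0.47 and 0.29 for Hoxa3, -0.24 and 0.071 for Hoxa4. No alternative was left out. An adjusted p over the threshold does not show that an autosomal gene stayed at the same level, and a Ctrl library at 0 can hide up to 3 reads.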
